A study of Homo sapiens with 4 samples.

Results

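Nalm-6 cells labelled Arp8 KO were compared with wild-type cells across all probes of the array, without oxidative stress. The arrays were chosen by their sample titles and are 2 of the 4 arrays of the series, 1 for each genotype. Nalm-6 is a human pre-B cell line. Total RNA was labelled with a single dye and hybridized to Agilent arrays, and the comparison asks which genes depend on Arp8 when no stress is applied. Wild-type cells carry no targeted locus. In the cells labelled Arp8 KO, the *ARP8* locus had been disrupted by homologous recombination, and a tetracycline-regulated (Tet-Off) expression system for Arp8 had been introduced. The labels do not say whether tetracycline had been given. Loss of Arp8 is lethal according to earlier work of the same group, and a KO line made by gene targeting grows from single cells, so that clone and genotype cannot be told apart. The remaining arrays, of Arp5 KO cells and of cells labelled Arp8 overexpression (called the overexpression array after its label), are given beside the comparison. All of them share the wild-type array. Because each genotype has a single array, no difference could be checked in a replicate or tested, and the number of arrays limits the precision.

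Arp8 is an actin-related protein that is found in the nucleus. Together with actin and Arp4 it forms a module of the INO80 complex, which slides and edits nucleosomes with the energy of ATP and takes part in transcription, DNA replication and DNA repair. In yeast and in human cells this module contacts DNA and histones.

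The targeted gene was examined first. A pair of probes detect *ACTR8*, which encodes Arp8. Probe A_24_P131697 had 2149 units in wild-type cells, 1634 on the array labelled Arp8 KO, 2268 in Arp5 KO cells and 1828 on the overexpression array. Probe A_23_P80694 had 1092 units in wild-type cells, 776 on the array labelled Arp8 KO, 1009 in Arp5 KO cells and 669 on the overexpression array. The log2 ratios of the array labelled Arp8 KO to wild-type cells were -0.40 and -0.49, so most of the mRNA signal remained. It was not examined which exons the probes cover, nor whether they detect the introduced gene. By this measure the KO label is not reflected in a loss of *ACTR8* mRNA, nor the overexpression label in a gain, since both probes were lower than in wild-type cells on that array too. Every direction below is drawn with the array labelled Arp8 KO over wild-type cells.

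The wild-type array had 29287 of 41000 probes well above background and the array labelled Arp8 KO had 28581. Signals are given in units of the wild-type array after the arrays had been scaled to the same 75th percentile. Spots of one probe that are repeated on the array gave the technical error. The median SD of their log2 ratio was 0.25 for the 19 repeated probes that were under 50 units on the dimmer array, 0.06 for 36 probes from 50 to 500 units and 0.03 for 150 probes over 500 units. Variation between cultures or clones is not part of this error. A log2 ratio under 50 units that lies within 0.25 of the 2-fold threshold can therefore not be placed on either side of it. Counts take such genes by their value, and the text marks them. Where a probe was not well above background on the dimmer array, a signal under a floor was set to the floor and one over it was kept, and the change is given as at least so many fold. The floor was the lowest level at which the array had a probe well above background, 7.76 units for wild-type cells and 9.33 units for the array labelled Arp8 KO.

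Most of the transcriptome was at the same level on both arrays. Of 29393 probes with a ratio, 436 (1.48%) were higher beyond 2-fold on the array labelled Arp8 KO and 609 (2.07%) were lower. The counts depended on the processing, with 114 and 226 after another background correction (normexp) and 1163 and 1463 without a filter on dim probes. The median log2 ratio was 0.01, 87.7% of the probes were within 1.5-fold, and the middle 95% lay between -0.93 and 0.82. Large decreases outnumbered large increases, since 48 probes were lower and 8 were higher by more than 8-fold. For 152 of the lower and 78 of the higher probes the ratio was such a minimum. Of the 41000 probes, 26221 (64.0%) were matched to a gene symbol. They gave a ratio for 13509 genes, each taken at the probe with the highest mean signal, of which 247 (1.83%) were higher and 263 (1.95%) lower beyond 2-fold, with a median of 0.03. In 3958 genes with more than 1 probe at 100 units or more, the probes differed by a median of 0.14 in log2 ratio, and in 99.4% of them by less than 1.

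**Figure D1:**
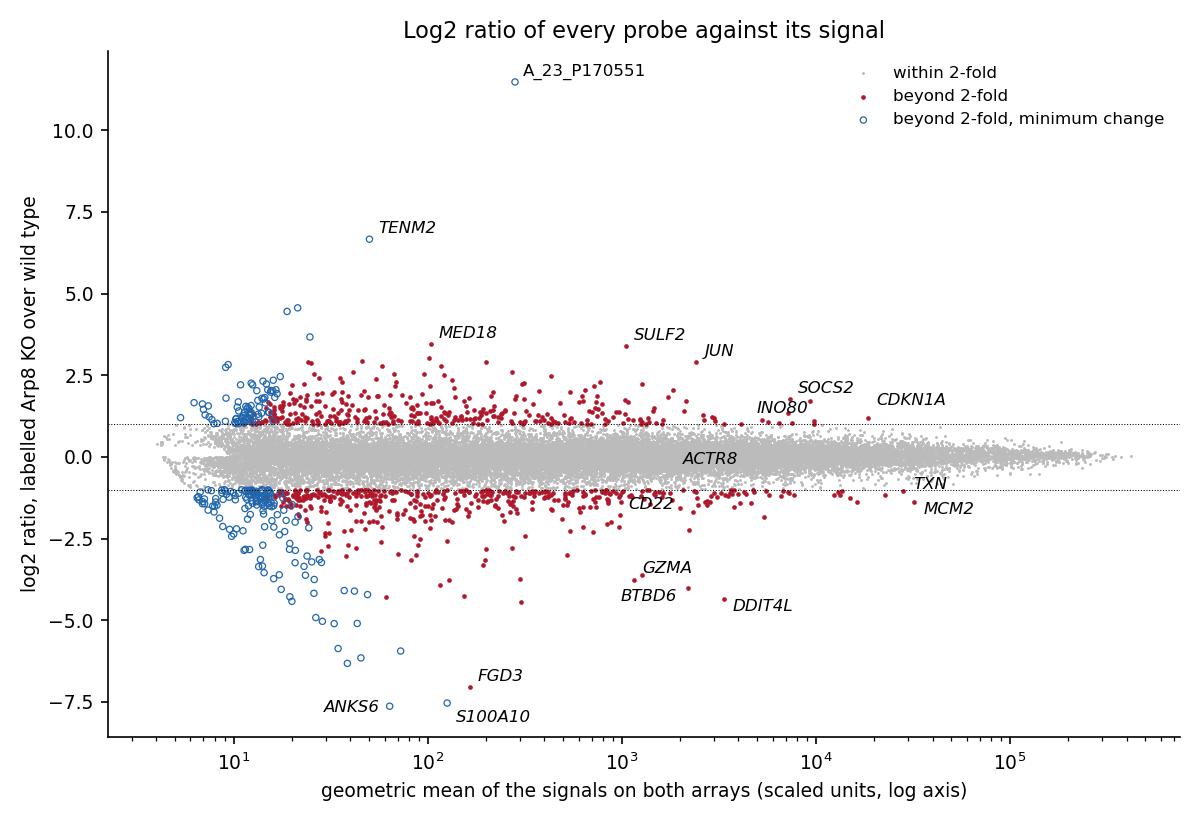
Log2 ratio of the array labelled Arp8 KO to wild-type cells (vertical axis) against the geometric mean of both signals in scaled units (horizontal log axis), 1 point per probe. Grey points are within 2-fold, red points beyond it, and open blue circles are minimum changes. Probe A_23_P170551 lies highest at 11.48 and *ANKS6* lowest at -7.63.

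In the plot of ratio against signal, the scatter narrowed toward bright probes. In the brightest of 4 classes of genes, 11 of 4214 genes were higher and 27 were lower, with shares of 0.261% and 0.641%. Between 50 and 500 units, 107 of 2401 genes were higher and 84 were lower, with shares of 4.46% and 3.50%. The medians of these groups were 0.04 and 0.05, and that of genes under 50 units was 0.01. The highest point belongs to probe A_23_P170551, which has no gene symbol and was singled out after its values were seen. It had 3.58 units in wild-type cells and 2.98 units in Arp5 KO cells, not well above background on either array. On the array labelled Arp8 KO it had 22120.4 units, at least 2851-fold more, and on the overexpression array 96238 units. This probe was therefore bright only on the pair of arrays that carry Arp8 in their label. Which transcript it detects, and whether that is a cellular gene or a sequence introduced with the Arp8 expression system, was not examined.

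The identity of the cells was checked with markers. All 13 pre-B markers with a probe were well above background on both arrays, among them *CD79A*, *CD79B*, *VPREB1*, *IGLL1*, *PAX5*, *EBF1*, *DNTT* and *RAG1*. Their median log2 ratio was -0.11, and *CD22*, with -1.78, was the only one of them beyond 2-fold. Among defining markers of other lineages, *CD3D* and *CD3G* of T cells, *GNLY* and *KLRD1* of NK cells, *MPO* and *ELANE* of myeloid cells and *HBB* of erythroid cells were not well above background on either array. Some markers of other lineages were measured on both arrays and lay within 2-fold, such as *CD8A* of T cells at 135 and 111 units, *NKG7* of NK cells at 325 and 242 units and *SDC1* of plasma cells at 11604 and 13113 units. In the myeloid list 4 of 7 markers were measured, and their median was 0.74. *LYZ*, the gene for lysozyme, had 55.4 units in wild-type cells, 141 on the array labelled Arp8 KO, 47.1 in Arp5 KO cells and 137 on the overexpression array. It was the only one of the 28 markers with a ratio that was counted as higher beyond 2-fold. *ITGAM*, another myeloid marker, had 0.94 at a dim signal and cannot be placed on either side. In bulk RNA of a culture, more cells of a type and more RNA per cell cannot be told apart, nor can fewer cells and less RNA.

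The largest increases were found in genes of different functions. *MED18*, a subunit of the head of the Mediator complex, had 31.2 units in wild-type cells, 344 on the array labelled Arp8 KO, 184 in Arp5 KO cells and 93.3 on the overexpression array. Among genes measured on both arrays that reached 100 units it had the largest increase by value, with a log2 ratio of 3.46. *SULF2*, an extracellular enzyme that removes sulfate groups from heparan sulfate, had 326 units in wild-type cells, 3403 on the array labelled Arp8 KO, 285 in Arp5 KO cells and 1406 on the overexpression array. Its log2 ratio was 3.39 and no such increase was seen in Arp5 KO cells. At the dim wild-type signal of *MED18*, the technical error of 0.25 leaves the order of *MED18* and *SULF2* open. *LHX2*, a homeodomain transcription factor, rose from 72.8 to 548 units, and was at 318 and 379 units on the arrays of Arp5 KO cells and of overexpression. *CCND2*, the gene for cyclin D2, had 22.1 units in wild-type cells and 153 on the array labelled Arp8 KO, and its 3 probes gave log2 ratios from 1.89 to 2.79. *RUNX1T1*, a transcriptional corepressor, had 348 and 1714 units, a log2 ratio of 2.30. *BACE2*, an aspartic protease, had 144 and 690.0 units, while Arp5 KO cells were lower than wild-type cells at 87.8 units. The other genes among the 15 with the largest increases were *GPR162*, *JUN*, *DAPL1*, *KIAA1671*, *SBSPON*, *ARHGEF25*, *GRIN2C*, *FOS* and *GCNT3*, with log2 ratios from 2.28 to 3.02. Another probe of *GPR162* gave 1.86 and another of *GCNT3* a minimum of 1.14. For *GRIN2C* another probe gave only 0.37, so its probes lay on different sides of the threshold.

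A gene that is silent in wild-type cells can only have a minimum increase. *TENM2*, which encodes a transmembrane protein of the teneurin family, had 3.23 units in wild-type cells and 2.53 in Arp5 KO cells, not well above background on either. It had 787 units on the array labelled Arp8 KO and 489 on the overexpression array, and was thus at least 101-fold higher on the former. *CYP2F1*, a cytochrome P450 gene, was at least 23.6-fold higher, although another probe of this gene gave a log2 ratio of -0.09. No other gene with a symbol that reached 100 units rose from a signal not well above background.

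Among genes measured on both arrays, the largest decreases were larger than the largest increases. *FGD3*, an activator of the small GTPase Cdc42, had 1887 units in wild-type cells, 14.4 on the array labelled Arp8 KO, 1647 in Arp5 KO cells and 36.6 on the overexpression array. It was 131-fold lower, the largest decrease among genes measured on both arrays that reached 100 units. Its other probe gave a minimum decrease of -4.11 in log2 ratio. *DDIT4L*, an inhibitor of mTOR signaling, had 15209 units in wild-type cells. It had 751 units on the array labelled Arp8 KO, 267 on the overexpression array and 24316 in Arp5 KO cells, in which it was not lowered. *BTBD6*, an adaptor of a ubiquitin ligase, had 8796 units in wild-type cells, 544 on the array labelled Arp8 KO, 9095 in Arp5 KO cells and 1838 on the overexpression array. *YOD1*, a deubiquitinating enzyme, *TJP1*, a scaffold of tight junctions, and *ADCY1*, an adenylyl cyclase, had log2 ratios of -4.45, -4.28 and -4.26. The other probes of *YOD1* were dim and gave minimum decreases of -1.58 and -2.86. In Arp5 KO cells *YOD1*, *TJP1* and *ADCY1* had -0.24, 0.05 and -0.06. *GZMA*, the gene for granzyme A, was lower than in wild-type cells on all other arrays, with 4229.8 units in wild-type cells, 314 on the array labelled Arp8 KO, 1559 in Arp5 KO cells and 511 on the overexpression array. *IL2RG*, the common gamma chain of several interleukin receptors, had 247, 30.8, 117 and 36.7 units on these arrays. *CD200*, a membrane protein that restrains myeloid cells, had 197, 24.9, 51.5 and 40.4 units. The remaining genes among the 15 with the largest decreases, *ZNF512B*, *SMCO4*, *S100A11*, *FAM221A*, *ELFN2* and *TTN*, had log2 ratios from -3.74 to -2.82.

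**Figure D2:**
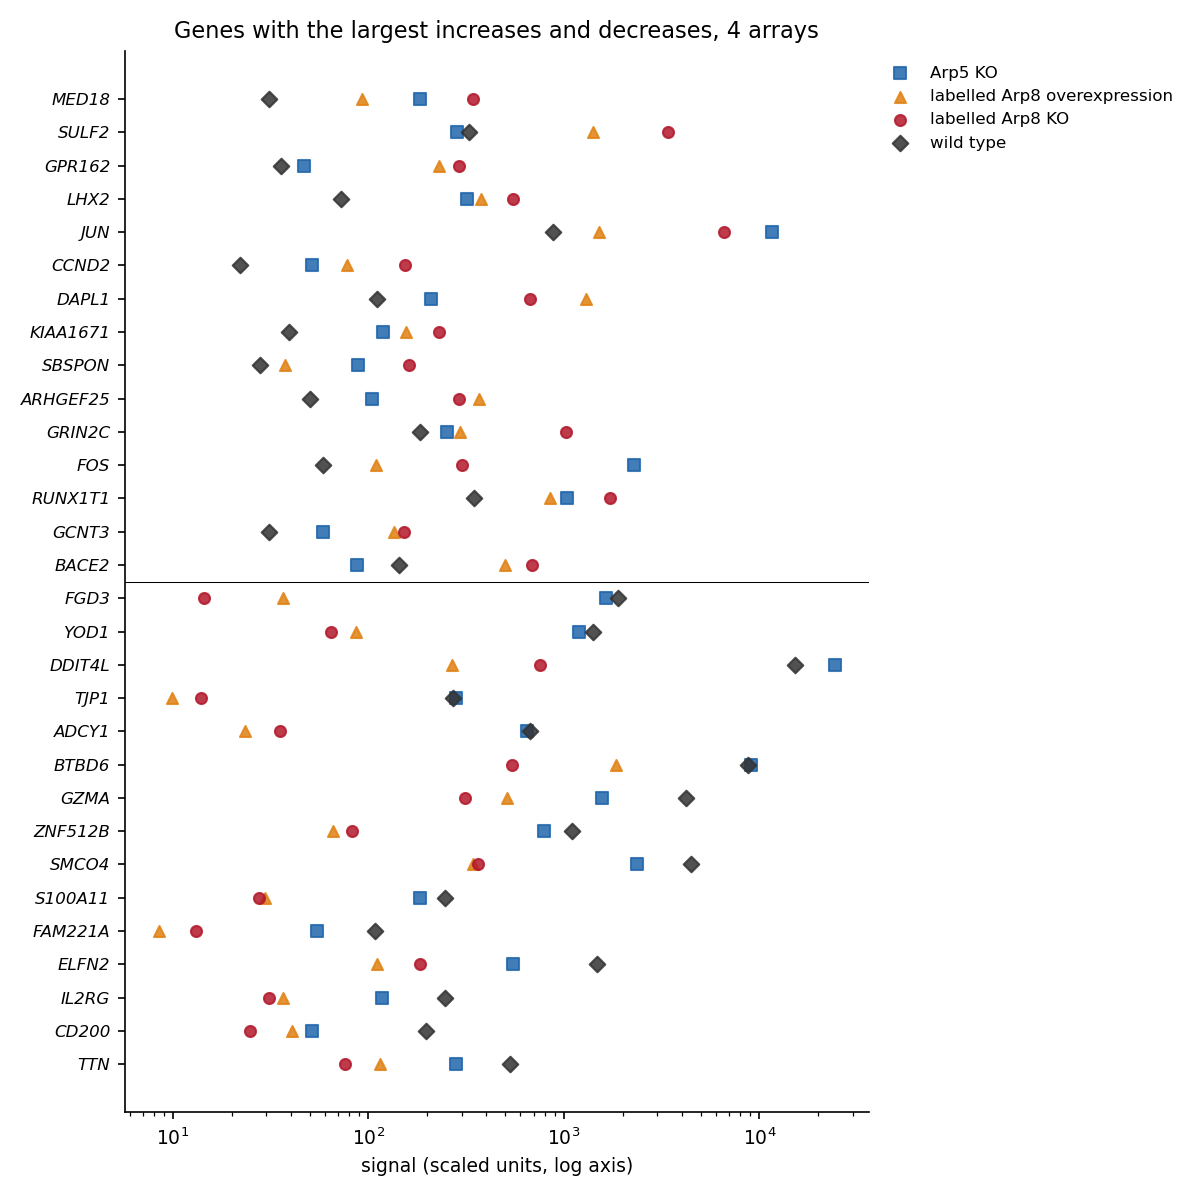
Signals in scaled units (horizontal log axis) of the 15 genes with the largest increase (upper part) and the 15 with the largest decrease (lower part), measured on both arrays and reaching 100 units. Each gene has 1 point for each of the 4 arrays, wild-type as a diamond, labelled Arp8 KO as a circle, Arp5 KO as a square and labelled Arp8 overexpression as a triangle. For *TJP1* the square and the diamond lie at 279.7 and 271 units and the circle and the triangle at 13.9 and 9.90 units.

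The plot of these signals also shows where the remaining arrays lie. For *SULF2*, *YOD1*, *TJP1*, *ADCY1* and *FGD3* the Arp5 KO array lay near wild-type cells and the overexpression array lay on the side of the array labelled Arp8 KO. For *JUN* and *FOS* the overexpression array was the one closest to wild-type cells. These positions are read from single arrays, and no difference between the comparisons was tested.

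Genes that fell to a signal not well above background are known by a minimum decrease. *ANKS6*, a protein of cilia, had 1849 units in wild-type cells and 1355 in Arp5 KO cells. It was at least 198-fold lower on the array labelled Arp8 KO and was not well above background on the overexpression array either. Its other, dim probe gave a minimum decrease of -2.36 in log2 ratio. *S100A10*, the partner of annexin A2, had 1729 units in wild-type cells and was at least 185-fold lower on the array labelled Arp8 KO. In contrast to *ANKS6*, it was also low in Arp5 KO cells, at 12.5 units. *ADTRP*, which encodes a membrane hydrolase, was at least 61.5-fold lower and had 28.1 units in Arp5 KO cells against 574 in wild-type cells. *ZNF256*, a zinc finger gene, was at least 79.9-fold lower. *MBNL2*, a regulator of splicing, was at least 71.1-fold lower by one probe and had a minimum decrease of -1.51 in log2 ratio by another. *ZNF256* and *MBNL2* had 641 and 526 units in Arp5 KO cells, against 746 and 663 in wild-type cells.

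A share of the lower genes were neighbours on chromosome 9. The order of genes was taken from the RefSeq table of assembly GRCh38.p14, which is not the build named by the array files, and was used for order and names only. Of 530 genes of chromosome 9 with a ratio, 42 (7.92%) were lower beyond 2-fold, against 0.885% to 2.65% on the other chromosomes. These lower genes were not spread over the chromosome. When the median log2 ratio was taken over each 15 neighbouring genes that reached 100 units, 66 of 10619 such windows were at -0.5 or lower, and all 66 were on chromosome 9. The lowest was -1.16, and the lowest on any other chromosome was -0.32. On the higher side, 3 windows on chromosome 17, between *SDK2* and *SUMO2*, reached 0.54. In Arp5 KO cells no window was beyond 0.5 in either direction. On the overexpression array 108 windows were at -0.5 or lower, of which 66 were on chromosome 9, and the lowest elsewhere was -0.92.

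The run of lower genes was taken from the windows at -0.5 or lower and cut to its first and last gene at -0.5 or lower. It began at *IPPK* and ended at *INIP*, and held 69 genes that reached 100 units. Their median log2 ratio was -0.97, with quartiles of -1.17 and -0.73, so that the typical gene lay close to the 2-fold threshold. Of the 69 genes, 66 were below 0, 61 (88.4%) were at -0.5 or lower, 32 (46.4%) were lower beyond 2-fold and 0 were higher beyond 2-fold. Outside the run, 5.95% of genes that reached 100 units were at -0.5 or lower. Because the run was chosen by this cut, the share within it partly restates the choice. The ends were also set by the cut, so the gene next to each end had to lie above -0.5. The last gene before the run, *CENPP*, had a log2 ratio of 0.37 and *IPPK* had -0.73, while *INIP* had -1.03 and the next gene, *SLC31A2*, had 0.20. The 15 genes before the run had a median of -0.06 and the 15 after it 0.09. In Arp5 KO cells the run had a median of -0.04 with 0 genes lower beyond 2-fold, and on the overexpression array -0.96 with 33 genes lower.

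**Figure D3:**
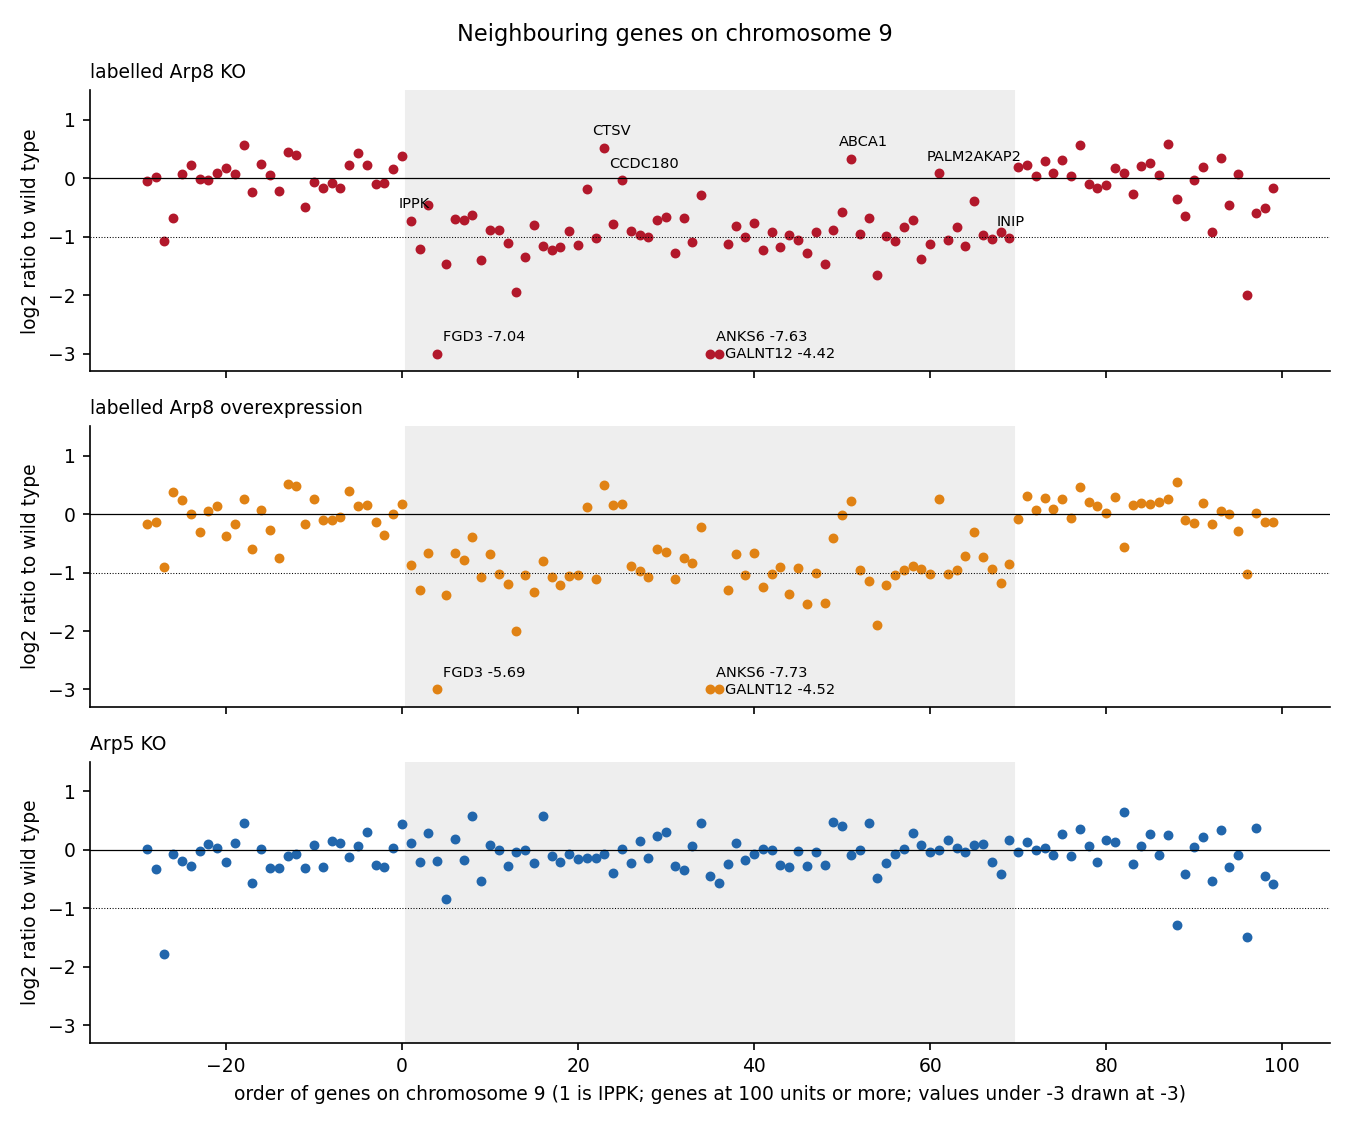
Log2 ratio to wild-type cells (vertical axis) of neighbouring genes on chromosome 9, in order and without genome positions (horizontal axis), for the array labelled Arp8 KO, the overexpression array and Arp5 KO cells. Each point is 1 gene, the grey area holds the 69 genes from *IPPK* to *INIP*, and points under -3 are drawn at -3 with their values beside them. In the grey area the points lie around -1 in the first 2 panels, with medians of -0.97 and -0.96, and around 0 in the last, with -0.04.

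The genes of the run had different functions. *FANCC*, a subunit of the Fanconi anemia core complex, had 4369 units in wild-type cells, 1715 on the array labelled Arp8 KO, 4356 in Arp5 KO cells and 2109 on the overexpression array. *TXN*, the gene for thioredoxin, had 40465, 19459, 45447 and 19888 units on these arrays. Its 2 probes gave log2 ratios of -1.06 and -1.15. *FGD3* and *ANKS6*, described above, also lay in the run and were lower than its typical gene. The following genes of the run were chosen after their values were seen. *SMC2*, a subunit of condensin, had a log2 ratio of -1.47, *RAD23B*, which helps *XPC* to recognize DNA damage, had -1.08 (-0.90 at its probe with the smallest change), and *XPA*, a factor of nucleotide excision repair, had -0.72. *PTCH1*, the Hedgehog receptor, had -0.81 at the probe used for the gene and -0.01 at another. *GALNT12*, a glycosyltransferase, was at least 21.4-fold lower. Of the 69 genes, 5 were above -0.25. Among them, *CTSV* had 0.52, *ABCA1* had 0.33 and *PALM2AKAP2* had 0.08 at the probe used for the gene, although another of its probes gave -2.34. With dimmer genes included the run held 86 genes, of which 73 were below 0, 66 (76.7%) were at -0.5 or lower and 1 was higher beyond 2-fold. Of all 609 probes lower beyond 2-fold, 54 (8.87%) belonged to genes of the run, and without the run 555 probes (1.90%) and 229 genes were lower. DNA copy number was not measured, and the cause was not tested. Genes of the run that belong to a functional list are named as such below.

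The transcripts were then grouped by function in 32 lists. The lists held 956 genes with a ratio, 29 of the 32 medians lay between -0.2 and 0.2, and 10 lists had no gene beyond 2-fold. The medians that lay farthest from that of all genes, 0.03, were 0.51 for targets of p53 and -0.37 for genes of pre-B cell identity.

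**Figure D4:**
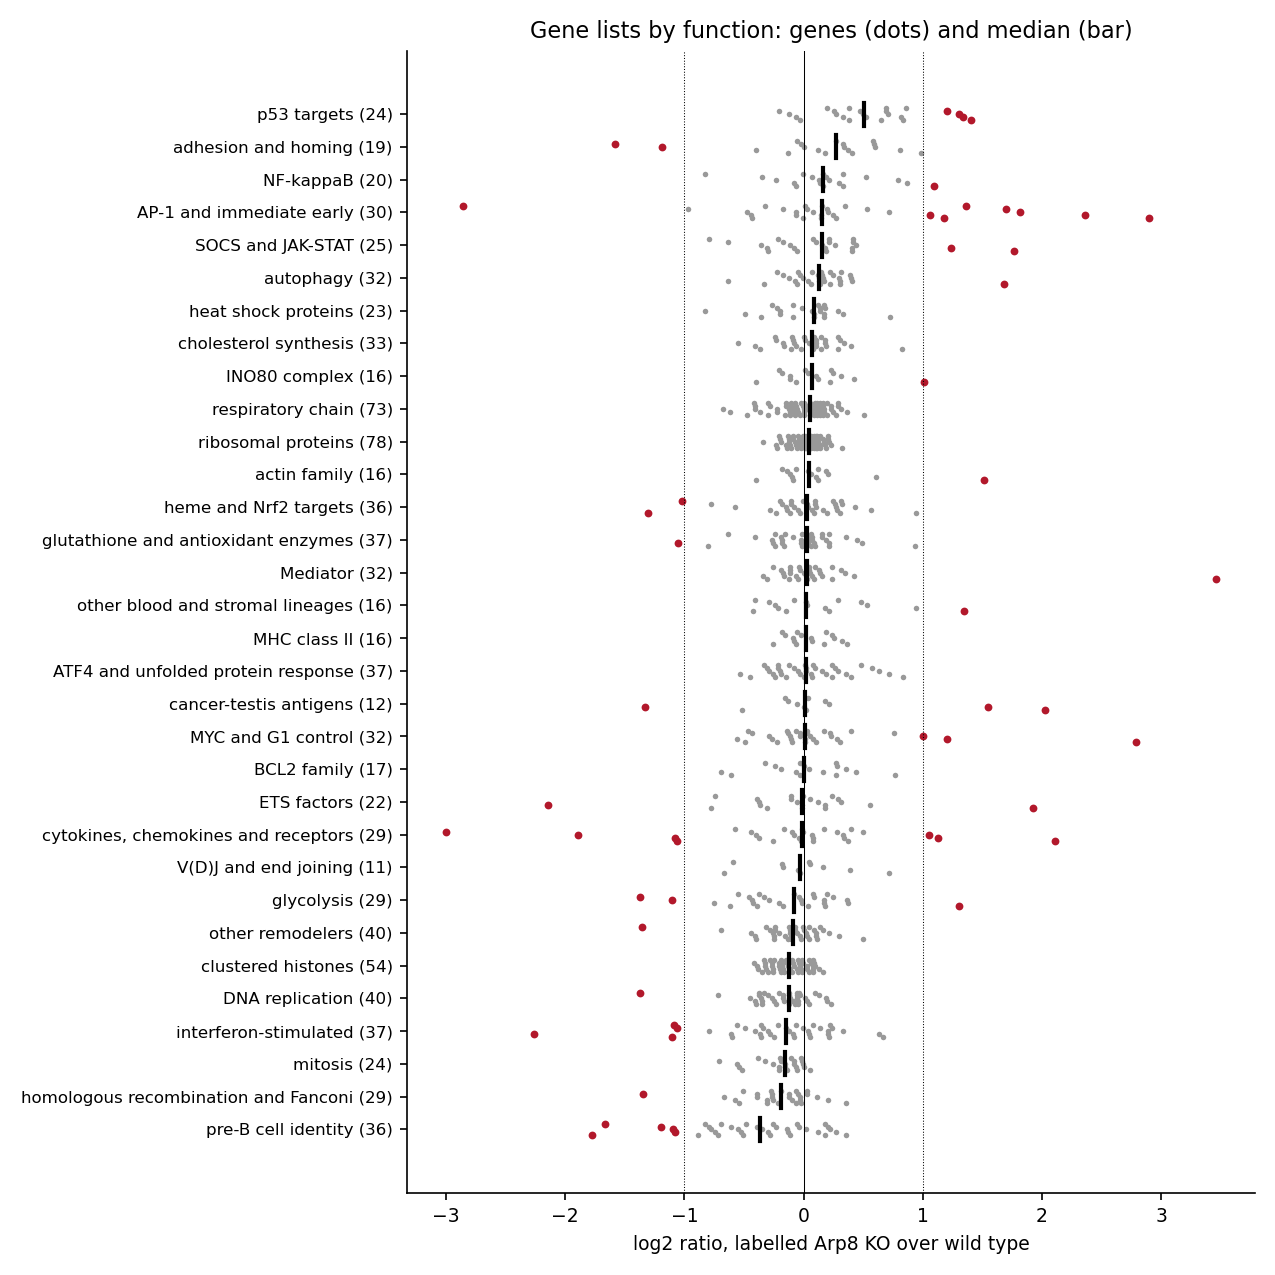
Log2 ratio of the array labelled Arp8 KO to wild-type cells (horizontal axis) of the genes of 32 lists, ordered by their median. Each dot is 1 gene, red where it is beyond 2-fold (dotted lines), the black bar is the median of the list, and the number of genes is given in brackets. Targets of p53 lie at the top with 0.51 and pre-B cell identity genes at the bottom with -0.37.

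Targets of the tumor suppressor p53 had the highest median of the 32 lists, 0.51. Of 24 genes, all with a ratio, 20 were above 0, 4 were higher and 0 were lower beyond 2-fold. The share of 16.7% stands against 1.83% of all genes. Of all 10942 genes that reached 100 units, 4846 were below 0. *CDKN1A*, the inhibitor of cyclin-dependent kinases known as p21, had 12254 units in wild-type cells, 28208 on the array labelled Arp8 KO, 9941 in Arp5 KO cells and 14215 on the overexpression array. It was measured by repeated spots, whose log2 ratio of 1.20 had an SD of 0.03. *SESN1*, a sestrin that restrains mTOR signaling, had 893, 2366, 806 and 1076 units on the same arrays. *TNFRSF10B*, a death receptor for TRAIL, had 4537, 11445, 4215 and 5864 units. On the array labelled Arp8 KO these genes were higher than on each of the remaining arrays. *TP53INP1*, a stress protein that promotes p53 activity, differed from them in that it was also higher on the overexpression array, with 660.5, 1631, 793 and 1417 units. *PHLDA3*, an inhibitor of Akt and a p53 target that the list does not hold, was added after its values were seen and had a log2 ratio of 1.83.

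The rest of the p53 list lay within 2-fold. The next largest log2 ratios were 0.86 for *FDXR*, 0.84 for *SESN2*, 0.82 for *ZMAT3* and 0.71 for *FAS*. Grouped by role, the medians were 0.51 for 4 genes of cell cycle arrest, 0.43 for 10 genes of cell death, 0.58 for 4 genes of DNA repair and 0.67 for 6 genes of feedback and metabolism. None of the repair genes was beyond 2-fold. *MDM2*, the ubiquitin ligase for p53, had 0.20, and *BAX*, which permeabilizes mitochondria, had -0.06 and -0.84 at another probe. *BBC3*, the gene for PUMA, which promotes cell death, had 0.27 at the probe used for the gene and 1.70 and 1.86 at its other probes, so the probes differed on whether it was beyond 2-fold. The lowest value was -0.21 for *PERP*. In Arp5 KO cells the list had a median of 0.09, and on the overexpression array 0.20. Whether p53 protein or the response to DNA damage differed was not measured.

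**Figure D5:**
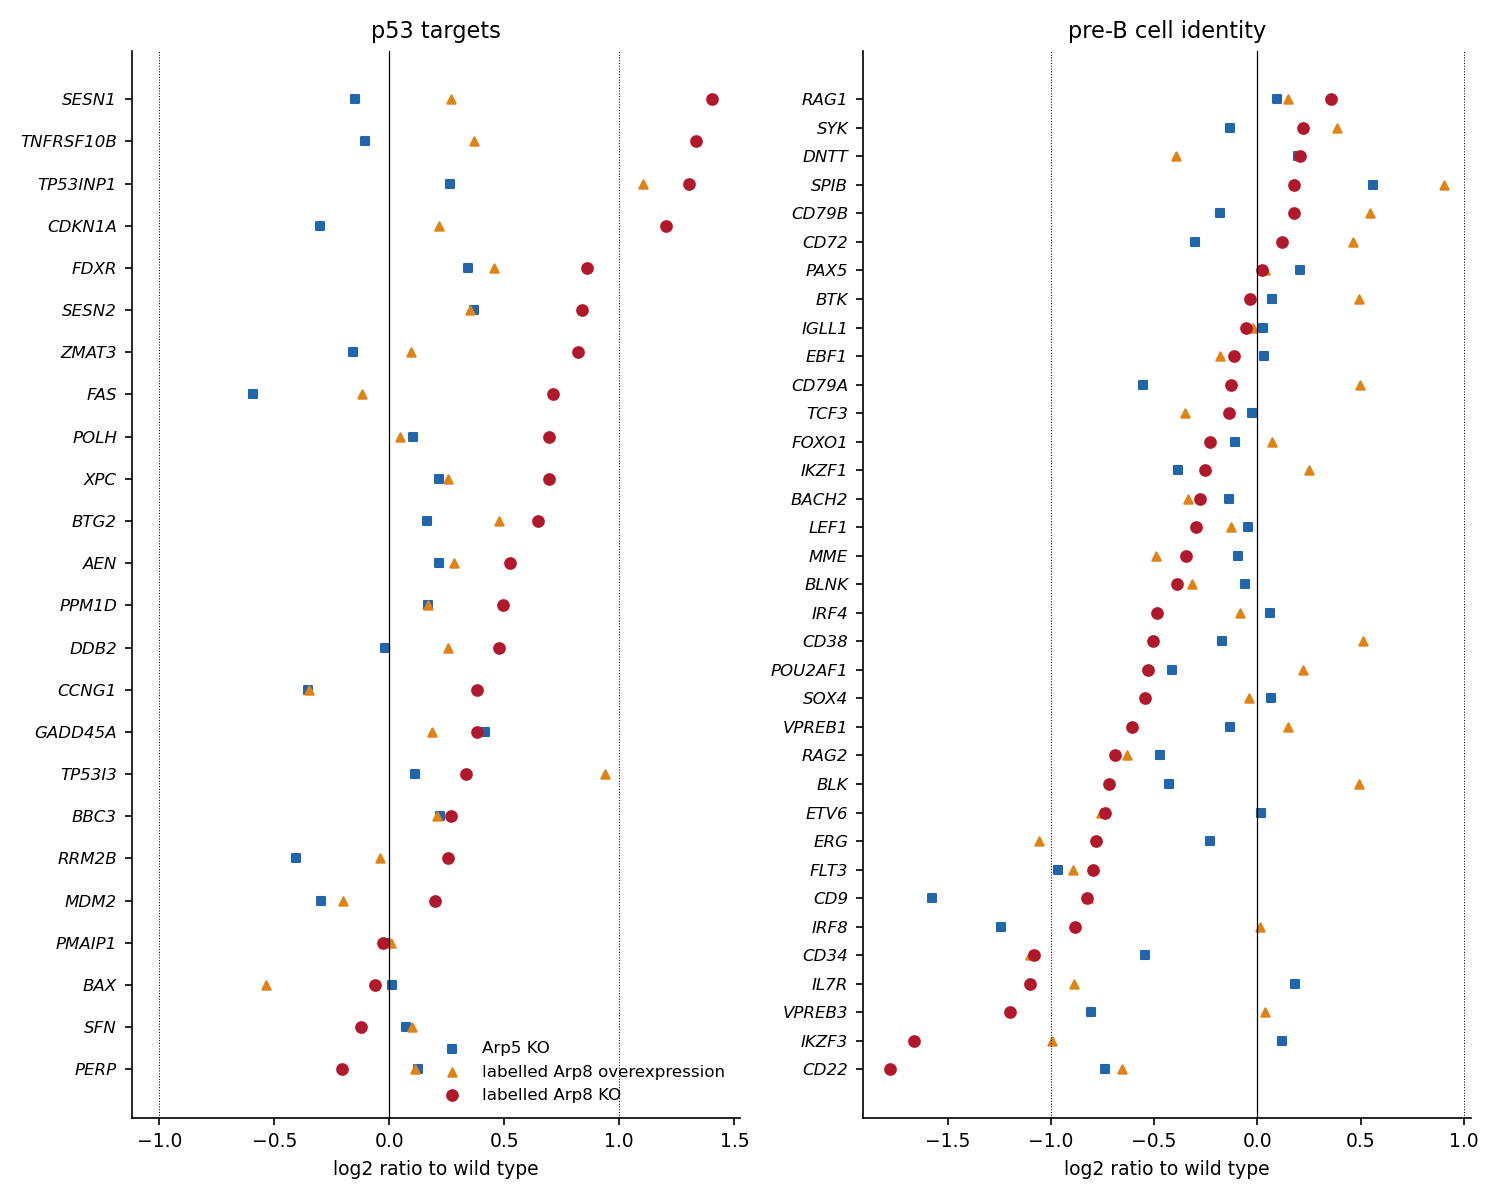
Log2 ratio to wild-type cells (horizontal axis) of 24 p53 target genes (left) and of pre-B cell identity genes (right, 1 gene of the list not drawn), ordered by the value on the array labelled Arp8 KO. Red circles stand for the array labelled Arp8 KO, blue squares for Arp5 KO cells and orange triangles for the overexpression array. On the left 20 of 24 circles lie above 0 and on the right 28 lie below 0.

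Genes of pre-B cell identity had the lowest median of the 32 lists, -0.37. Of 36 genes with a ratio, 28 were below 0, 5 (13.9%) were lower beyond 2-fold against 1.95% of all genes, and 0 were higher. *CD22*, an inhibitory co-receptor of B cells, had 1821 units in wild-type cells, 531 on the array labelled Arp8 KO, 1091 in Arp5 KO cells and 1154 on the overexpression array. *VPREB3*, a chaperone of the pre-B cell receptor, had 10009.5, 4359, 5729 and 10281 units on the same arrays. *IL7R*, the receptor chain for the cytokine that sustains B cell precursors, had 10613, 4954, 12027 and 5740.3 units. Thus *CD22* was lowest on the array labelled Arp8 KO, and *IL7R* was lower on both arrays that carry Arp8 in their label. *IKZF3*, which encodes the transcription factor Aiolos, and *CD34*, a marker of early progenitors, were dim, with log2 ratios of -1.66 and -1.08. The technical error leaves the side of the threshold open to doubt for *CD34*, whose other probe gave a minimum decrease of -0.81, and also for *IRF8*, with -0.88. *FLT3*, a receptor of early progenitors, was dim in wild-type cells and not well above background on the array labelled Arp8 KO, so only a minimum decrease of -0.80 is known. By role, 6 surface proteins had a median of -0.81, 15 transcription factors -0.30, 12 genes of the receptor and its signaling -0.09 and 3 genes of recombination 0.20. Genes of the receptor itself differed, with 0.18 for *CD79B* and -0.61 for *VPREB1*, a part of the surrogate light chain. *IGLL1*, the other part of this chain, had -0.06 at the probe used for the gene and -0.51 at another. The highest value was 0.36 for *RAG1*, which starts the recombination of antigen receptor genes. The list had a median of -0.12 in Arp5 KO cells and of -0.03 on the overexpression array.

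Immediate early genes, which respond to signals within minutes, were counted beyond 2-fold in a larger share than genes at large. Of 30 with a ratio, 7 (23.3%) were counted as higher and 1 (3.33%) as lower beyond 2-fold, against 1.83% and 1.95% of all genes, with a median of 0.15. The count of higher genes includes genes too dim to be placed and genes not well above background in wild-type cells, which are named below. *JUN*, a subunit of the AP-1 factor, was measured by repeated spots and had 885 units in wild-type cells, 6601 on the array labelled Arp8 KO, 11639 in Arp5 KO cells and 1508 on the overexpression array. *EGR1*, a zinc finger factor, had 85.2, 277, 4315 and 117 units on these arrays. *FOS*, the partner of *JUN*, had 58.7, 302, 2272 and 109 units. All 3 genes were brighter on the Arp5 KO array than on the array labelled Arp8 KO. As a ratio the difference was largest for *EGR1*, but in units it was largest for *JUN*. *FOSB* and *EGR2* had log2 ratios of 1.18 and 1.06 and, at their dim signals, cannot be placed on either side of the threshold. *DUSP5*, a phosphatase that acts on ERK, was at least 3.52-fold higher and *NR4A2*, an orphan nuclear receptor, at least 2.57-fold higher, both from a dim signal. *EGR4* went the other way and was at least 7.26-fold lower. *IER2*, within 2-fold, had 0.27. By role, 7 genes of AP-1 had a median of 0.53 and 10 genes of feedback, such as phosphatases, -0.16. *KLF4* of this list lies in the chromosome 9 run but was not lower, with 0.20.

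The promoters of these genes were examined for the binding motif of ATF and CREB factors, because members that moved together may share letters of sequence. The letters TGACGT, on either strand, were found in 8.31% of 27195 promoters of 300 bases from RefSeq (assembly GRCh38.p14), each from 250 bases before to 50 bases after the start of a gene. Of 25 immediate early genes with such a promoter, 7 held them. Of the 5 genes counted as higher that have a promoter, *FOS*, *FOSB* and *EGR1* held them and *JUN* and *EGR2* did not, with *FOSB* and *EGR2* near the threshold as said above. They were also found in *EGR4*, *DUSP1*, *FOSL2* and *SPRED2*, which were not counted as higher. The promoters of *FOS* (chr14:75278578-75278877, plus strand), *FOSB* (chr19:45467746-45468045, plus strand) and *EGR1* (chr5:138465229-138465528, plus strand) are shown because these genes were counted as higher and hold the motif, with the motif in capitals, as ACGTCA where it lies on the opposite strand.
FOS: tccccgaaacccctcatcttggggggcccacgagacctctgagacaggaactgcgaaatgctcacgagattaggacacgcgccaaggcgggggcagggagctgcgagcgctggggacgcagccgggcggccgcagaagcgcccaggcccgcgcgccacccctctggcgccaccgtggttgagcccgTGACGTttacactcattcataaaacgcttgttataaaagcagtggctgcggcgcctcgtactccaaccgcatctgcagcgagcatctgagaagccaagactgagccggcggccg
FOSB: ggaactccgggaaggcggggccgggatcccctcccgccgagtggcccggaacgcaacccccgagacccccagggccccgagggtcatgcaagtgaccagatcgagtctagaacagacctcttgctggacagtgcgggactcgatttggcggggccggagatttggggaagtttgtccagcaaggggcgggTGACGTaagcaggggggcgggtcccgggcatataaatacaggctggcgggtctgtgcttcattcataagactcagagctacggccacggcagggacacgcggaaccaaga
EGR1: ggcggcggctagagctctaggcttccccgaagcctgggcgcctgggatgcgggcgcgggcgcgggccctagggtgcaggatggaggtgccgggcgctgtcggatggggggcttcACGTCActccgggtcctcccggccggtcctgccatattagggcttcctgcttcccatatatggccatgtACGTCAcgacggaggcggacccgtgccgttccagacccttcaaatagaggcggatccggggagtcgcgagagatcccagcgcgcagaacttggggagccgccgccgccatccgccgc
The motif was in 2 or more places in 2.34% of all promoters. It was in 2 places in *EGR1*, in 2 in *EGR4*, which was lower, and in 3 in *DUSP1*, which was within 2-fold. Other motifs were searched in the same 25 promoters. The palindrome TGACGTCA was in 1, *DUSP1*, against 1.98% of all promoters. The CArG box, another motif, was in 2, *EGR1* and *SRF*, against 1.29%. The letters TTCNNNGAA were in 1, *EGR1*, against 7.89%. Of 20 promoters of p53 targets, 3 held TGACGT, and 0 of these belonged to genes counted as higher. A match describes the letters and shows no binding.

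The Mediator complex, which connects transcription factors with RNA polymerase II, was at the wild-type level apart from *MED18*. Of 32 subunits with a ratio, only *MED18* (3.1%) was beyond 2-fold, against 1.83% higher of all genes, and the median was 0.03. The others lay between -0.34 for *MED7* and 0.42 for *MED4*. The *MED18* promoter (assembly GRCh38.p14, chr1:28328790-28329089, plus strand) held the full palindrome of the ATF and CREB motif, TGACGTCA, in 1 place. This palindrome, which contains the shorter motif above, was in 1.98% of all promoters. The promoter is shown because the gene had, by value, the largest increase among genes measured on both arrays that reached 100 units. The palindrome is in capitals.
MED18: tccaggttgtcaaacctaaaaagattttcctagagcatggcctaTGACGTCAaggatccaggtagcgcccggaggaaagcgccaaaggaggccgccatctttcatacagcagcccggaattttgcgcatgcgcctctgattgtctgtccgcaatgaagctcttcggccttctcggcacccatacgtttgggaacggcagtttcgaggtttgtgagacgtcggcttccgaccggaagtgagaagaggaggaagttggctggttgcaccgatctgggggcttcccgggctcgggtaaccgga

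A pair of negative regulators of cytokine signaling were higher on the array labelled Arp8 KO and also, to a smaller extent, in Arp5 KO cells. *SOCS2*, an inhibitor of JAK and STAT signaling, had 3977 units in wild-type cells, 13544 on the array labelled Arp8 KO, 11285 in Arp5 KO cells and 4303 on the overexpression array. *CISH*, a related inhibitor, had 588, 1384, 1089 and 636 units on these arrays. The second probe of *SOCS2* gave a log2 ratio of 1.69 and that of *CISH* 0.97. They were the only genes counted beyond 2-fold among 25 of the SOCS and JAK-STAT list, against 1.83% higher of all genes, and the median was 0.15. *SOCS1*, another inhibitor, lay on the other side of 0 with -0.63. *STAT4*, the lowest, had -0.80 at a dim signal, too close to the threshold to be placed. Both *SOCS2* and *CISH* are known targets of STAT5, which binds the letters TTCNNNGAA. These letters were in 7.89% of all promoters, in 4 or more places in 6 promoters (0.0221%). The promoter of *CISH* (assembly GRCh38.p14, chr3:50611725-50612024, minus strand) held them in 4 places. It is shown, with the letters in capitals, because it was the only one of 21 promoters of the list to hold them. The promoter of *SOCS2* is not among these 21 and was not examined.
CISH: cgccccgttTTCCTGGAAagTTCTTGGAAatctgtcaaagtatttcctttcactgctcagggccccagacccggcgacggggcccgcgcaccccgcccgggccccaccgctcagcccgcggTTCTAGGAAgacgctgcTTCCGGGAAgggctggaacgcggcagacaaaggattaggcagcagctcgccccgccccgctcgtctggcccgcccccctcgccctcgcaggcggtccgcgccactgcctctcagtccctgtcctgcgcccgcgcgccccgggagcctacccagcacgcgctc

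Among the subunits of the INO80 complex itself, only the ATPase gene was beyond 2-fold. This was 1 of 16 genes with a ratio (6.25%), against 1.83% higher of all genes, and the median was 0.07. *INO80*, the ATPase that carries the other subunits, had 6899.8 units in wild-type cells, 13935 on the array labelled Arp8 KO, 12192 in Arp5 KO cells and 7943 on the overexpression array. With 1.01 it lay at the threshold. *TFPT*, a subunit found in metazoans, had 0.42, *NFRKB* had 0.31, *INO80C* had 0.24 and *INO80D* had 0.22. The AAA+ helicases *RUVBL1* and *RUVBL2* had 0.23 and -0.21. *ACTL6A*, the gene for Arp4, had -0.18, *ACTR5* had -0.06 and *ACTB*, the gene for beta-actin, had 0.03. The lowest of the list was *ACTR8* itself. In the wider actin family of 16 genes, *ACTA2*, a smooth muscle actin, was the only gene (6.25%) beyond 2-fold, against 1.83% higher of all genes. It had 430.1 units in wild-type cells and 1225 on the array labelled Arp8 KO. Among 40 genes of other remodelers, *CHD3*, an ATPase of the NuRD complex, was the only one (2.5%) beyond 2-fold, against 1.95% lower of all genes. Its log2 ratio was -1.35, against -0.74 in Arp5 KO cells. The median of that list was -0.09.

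Genes of DNA replication, mitosis and homologous recombination had medians slightly below that of all genes. Of 40 genes of DNA replication, 32 were below 0, with a median of -0.12. Of all 10942 genes that reached 100 units, 4846 were below 0. Only *MCM2* was beyond 2-fold, a share of 2.5% against 1.95% lower of all genes. *MCM2*, a subunit of the replicative helicase, had 51402 units in wild-type cells, 19838 on the array labelled Arp8 KO, 13517 in Arp5 KO cells and 47824 on the overexpression array. It was thus lower on both arrays labelled KO and near the wild-type level on the remaining one. *MCM7*, which belongs to the same helicase, had -0.25. Of 24 genes of mitosis, 22 were below 0 with a median of -0.16, from -0.71 for *BUB1B*, a kinase of the spindle checkpoint, to 0.05 for *PRC1*. In 29 genes of homologous recombination and the Fanconi pathway the median was -0.19, and *FANCC* of the chromosome 9 run was the only gene beyond 2-fold. This share of 3.45% stands against 1.95% lower of all genes. Without genes of the run the median was -0.16. Of 11 genes of V(D)J recombination and end joining none was beyond 2-fold and the median was -0.03, with -0.67 for *LIG4* and 0.72 for *APLF*. In the list of MYC and G1 control, 3 of 32 genes (9.38%) were higher, against 1.83% of all genes, namely *CCND2*, *CDKN1A* and *MXD4*, a repressor that opposes MYC. *MXD4* lay at the threshold with 893 and 1788 units, and its other probes gave 0.72 and 0.73. The median of that list was 0.01, and that of 10 genes of RB and E2F was -0.10.

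Of 37 interferon-stimulated genes, 4 (10.8%) were counted as lower, against 1.95% of all genes, and 0 as higher, with a median of -0.15. *MX1*, an antiviral GTPase, had 2265 units in wild-type cells, 1066 on the array labelled Arp8 KO, 1160.2 in Arp5 KO cells and 2376 on the overexpression array. *XAF1*, a factor that promotes apoptosis, had 1204, 559, 1041 and 936 units. Its log2 ratio was -1.11, and its probe with the smallest change gave -0.94. *OASL* was at least 4.79-fold lower on the array labelled Arp8 KO and was not well above background on the other 2 arrays either. *SAMHD1*, which breaks down nucleotides, had a log2 ratio of -1.06 at a dim signal and is too close to the threshold to be placed. The highest value was 0.67 for *OAS1*, so the list did not move as one. In 16 genes of MHC class II the median was 0.02 and none was beyond 2-fold.

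Cytokines, chemokines and their receptors were changed in both directions. Of 29 genes with a ratio, 3 (10.3%) were counted as higher and 4 (13.8%) as lower, against 1.83% and 1.95% of all genes, with a median of -0.02. *CCR1*, a chemokine receptor, had 65.6 units in wild-type cells and 283 on the array labelled Arp8 KO, a log2 ratio of 2.11, while another probe gave a minimum of 0.69. *CD70*, the ligand of *CD27*, had 5270.3, 10899.5, 4659 and 5554 units in wild-type cells, on the array labelled Arp8 KO, in Arp5 KO cells and on the overexpression array. *TNFRSF1B*, a receptor for TNF, had 1.12 at a dim signal, too close to the threshold to be placed. Besides *IL2RG*, the lower genes were *TNFRSF17*, the receptor known as BCMA, with -1.90, *IL1B* with -1.08 and *IL3RA*, the alpha chain of the interleukin 3 receptor, with -1.06 and -0.90 at another probe. *TNFRSF17* and *IL3RA* had 1.01 and 1.20 on the overexpression array, which is the opposite direction. In the NF-kappaB list *TNF* was the only one of 20 genes (5.0%) counted beyond 2-fold, against 1.83% higher of all genes. *TNF* had 1.09, and 0.41 at another probe, while *NFKBIZ*, with -0.83, was too dim to be placed. Of 19 genes of adhesion and homing, 2 were counted as lower, and the share of all genes was 1.95%. *ESAM*, an adhesion molecule of tight junctions, had -1.58 and *MADCAM1*, a ligand for homing lymphocytes, had -1.19, whereas the median of the list was 0.27. *MADCAM1* cannot be placed by this dim probe, and its other probe gave -2.71. Among 22 ETS factors, 1 (4.55%) was higher and 1 was lower, against 1.83% and 1.95% of all genes. *ETV7* had 1.92 and *ETV4* was at least 4.42-fold lower by one probe, with a minimum decrease of -0.17 in log2 ratio by another.

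Genes of redox and heme metabolism were mostly at the wild-type level. Of 36 genes of heme metabolism and Nrf2 targets, 2 (5.56%) were counted as lower beyond 2-fold, against 1.95% of all genes, and 0 as higher, with a median of 0.03. *NQO1*, a quinone reductase, had 49.2 units in wild-type cells and 19.9 on the array labelled Arp8 KO, and *MAFF*, a small Maf factor, had 51.6 and 25.4 units. At these signals the technical error leaves the side of the threshold uncertain for *MAFF*. *HMOX1*, the gene for heme oxygenase-1, had -0.78 and was within 2-fold. Of 37 genes of glutathione and antioxidant enzymes, *TXN* of the chromosome 9 run was the only one (2.70%) counted beyond 2-fold, against 1.95% lower of all genes. The median without *TXN* and any other gene of the run was 0.03. *GPX3*, a secreted glutathione peroxidase, had -0.81 at a dim signal near the threshold. *GSTM3*, a glutathione transferase, was not well above background on the array labelled Arp8 KO, so only a minimum decrease of -0.09 is known. *PRDX1*, a peroxiredoxin, had -0.02.

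In glycolysis, 2 of 29 genes (6.90%) were counted as lower and 1 (3.45%) as higher, against 1.95% and 1.83% of all genes, and the median was -0.08. *PFKFB4*, a regulator of glycolytic flux, was lower on all 3 arrays relative to wild-type cells, with 1175 units in wild-type cells, 454 on the array labelled Arp8 KO, 347 in Arp5 KO cells and 337 on the overexpression array. *SLC16A3*, a lactate transporter, had -1.11 at a dim signal, too close to the threshold to be placed. *EGLN3*, an oxygen sensor, had 1.31 at a dim signal. *WIPI1*, a protein of early autophagosomes, was the only one of 32 autophagy genes (3.1%) beyond 2-fold, against 1.83% higher of all genes. It had 603 units in wild-type cells, 1932 on the array labelled Arp8 KO, 1613 in Arp5 KO cells and 2198 on the overexpression array, so the wild-type array was the lowest. Of 12 cancer-testis antigen genes, *SPANXA1* was at least 4.08-fold and *SPANXD* at least 2.93-fold higher, and *ACTL8* had a log2 ratio of -1.33. These shares were 16.7% higher and 8.33% lower, against 1.83% and 1.95% of all genes. Most of the 12 genes were under 50 units on the brighter array, where 3.79% of genes were higher and 3.74% lower. *SPANXA1* and *SPANXD* had a ratio only through their signal on the array labelled Arp8 KO. Of this list 27 genes had a probe, and those silent on both arrays have no ratio. The shares therefore cannot show whether the list differed from genes at large.

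Housekeeping groups showed little change. None of 78 ribosomal protein genes was beyond 2-fold at the probe used for the gene. These genes had a median of 0.05, and the highest value was 0.32 for *RPL27A*. Another probe of *RPL10* gave -1.03, against 0.06 at the probe used. The 73 genes of the respiratory chain had a median of 0.05, from -0.67 for *NDUFV3* to 0.51 for *ATP5ME*. In 54 clustered histone genes the median was -0.12, from -0.42 for *H2BC5* to 0.16 for *H2AC21* at the probes used. Another probe of *H2BC21* gave -1.97, against -0.21 at the probe used for the gene. On the overexpression array, by contrast, 23 histone genes were lower beyond 2-fold, and the median was -0.72. Of all genes, 1.99% were lower on that array. The list of cholesterol synthesis had a median of 0.07, with -0.55 for *SREBF2*, the factor that drives the pathway, and 0.82 for *TM7SF2*. The ATF4 targets and genes of the unfolded protein response had a median of 0.02, from -0.54 for *PDIA4* to 0.84 for *SESN2*. Heat shock proteins had a median of 0.09 and lay between -0.82 for *HSPB1*, a small heat shock protein, and 0.72 for *BAG3*, whose other, dimmer probe gave 1.07. The BCL2 family had a median of 0.00, from -0.70 for *BIK* to a minimum of 0.77 for *BCL2L10*. At other probes, as given above, *BBC3* of this family reached 1.86 and *BAX* -0.84.

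Several bright genes outside the lists were beyond 2-fold, and were chosen after their values were seen. *BCL6*, a repressor that protects pre-B cells after receptor signaling, had 4822 units in wild-type cells, 1025 on the array labelled Arp8 KO, 1822 in Arp5 KO cells and 2210.2 on the overexpression array. *TERT*, the catalytic subunit of telomerase, had 6646, 2489.9, 4523 and 2779.9 units. *NRIP1*, a corepressor of nuclear receptors, had 10230.5, 2841, 8844 and 2696 units. For *NRIP1* the Arp5 KO array lay near wild-type cells, whereas *BCL6* was lower on all 3 arrays relative to wild-type cells. *CD33*, a myeloid surface receptor, had 587, 2759, 867 and 1676 units. *HCST*, the signaling adaptor of the NKG2D receptor, had 340.0, 1532, 782 and 1408 units. The part of cells of another lineage in the level of *CD33* was not tested.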

How the data were processed

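Agilent single-color arrays of Nalm-6 cells, 1 per genotype, were grouped by their sample titles. The deposited files give spot signal as intensity that the authors made with Feature Extraction 10.5.1.1, which subtracts the background. The authors' value table is this processed signal times a constant for each array, whose origin the files do not give. Spots of a probe were averaged, each array was scaled to the 75th percentile of the wild-type array, and log2 ratios were taken for probes well above background on at least 1 of both arrays, with bounds as described in the report. Each gene was represented by the probe with the highest mean log2 signal. No test was possible. Of 41000 probes, 29287 in wild-type cells and 28581 on the array labelled Arp8 KO passed the background flag. Genes were named by rule: the 15 largest changes each way among genes measured on both arrays that reached 100 units, up to 5 bounds each way, the INO80 complex, *HMOX1*, *GPX3* and *GSTM3*, and in each list up to 8 genes beyond 2-fold (otherwise the highest and the lowest) and the gene with the highest signal. Other names were added after values were seen. A few genes that the rule or the marker list names are not reported here. Members and lists were chosen with earlier results of these data known. Alternatives changed the scaling, the background (normexp on the median signal, because no mean signal is given), filters, thresholds and the choice of probe. Python 3.11.15, numpy 2.4.6, pandas 2.3.3, statsmodels 0.14.6, matplotlib 3.10.9, R 4.3.3 and limma 3.58.1 were used, and the code was tested on simulated data.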

Additional observations from a re-analysis of the deposited data

Results flagged for a closer look

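A signal appeared in an array that the comparison does not use. On the array labelled Arp8 overexpression, the 69 genes of chromosome 9 from *IPPK* to *INIP* had a median log2 ratio of -0.96 to wild-type cells, against 0.04 for all genes that reached 100 units. The cause was not tested.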

How the results depend on the processing

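A turn in direction was recorded only for values beyond 2-fold in the main setting. Counts, list medians and the run median could therefore not be recorded as turned. No named gene beyond 2-fold was recorded as turned under the scalings, normexp or the authors' table. The scalings moved the median of all genes by up to 0.0236. List medians and genes closer to 0 than that, such as 0.0046 for the BCL2 family, have no settled direction. Over all alternatives, 50 of 291 values of list medians were recorded as moved, by up to 0.15. The direction of a list median closer to 0 than 0.15 may therefore not be settled either. Filters and the choice of probe were not varied for single genes, and the report gives differing probes of a gene only in some cases. The count of higher probes, 436, was 114 with normexp, 1163 with no filter, 218 at 100 units or more, 1576 at 1.5-fold, 129 at 3-fold and 247 as gene symbols. The count of lower probes, 609, was 226 with normexp, 1463 with no filter, 318 at 100 units or more, 2034 at 1.5-fold, 160 at 3-fold and 263 as gene symbols. The moves under other filters, thresholds and the counting by gene follow from how these settings are made. Normexp changed the method, the offset and the input signal at once, and the cause of its moves was not tested. The median of the immediate early list was 0.12 with normexp and 0.20 with the mean over all probes, that of p53 targets was 0.55 with normexp, and that of the chromosome 9 run was -0.85 with normexp. For the mean over all probes the cause was not tested. Over all settings the p53 median ranged from 0.49 to 0.55, the pre-B median from -0.40 to -0.34, the run median was -0.85 at the highest and the *ACTR8* ratios from -0.52 to -0.47 and from -0.42 to -0.37. Of 86 named genes beyond 2-fold, 63 remained so with normexp, under which 1 had no value, and 82 to 86 under the other scalings and the authors' table. The text does not mark which genes lost the call with normexp. Settings for the run were chosen after seeing the data, and windows of 9 or 25 genes gave the same ends. No paired analysis was possible because there is 1 array a side. Signal over background limits the dim genes, for which only bounds are given.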
